A study of Homo sapiens with 9 samples.

Results

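Ribosome assembly factors are the proteins that fold, cut and modify ribosomal RNA in the nucleolus and load ribosomal proteins onto it, without staying in the finished ribosome. The small-subunit processome builds the precursor of the 40S subunit around the U3 small nucleolar RNA, and pre-60S factors mature the large subunit. Box C/D proteins take part in the methylation of ribosomal RNA. The transcription factor MYC is known to raise the expression of many of these genes in growing cells, and Burkitt lymphoma is the textbook tumour of a MYC translocation. Here 58 such genes were followed by symbol: 24 small-subunit factors, 24 large-subunit factors, 5 box C/D factors and 5 multifunctional nucleolar proteins. Each gene was read by the probe set that carried its symbol alone and had the highest mean over the 9 arrays, and 52 of the 58 had one, out of 19775 genes with a probe set. All 52 lay above the level set for testing, a mean log2 signal of 5.77 that kept 11250 genes. BOP1, NOP56 and PPAN, whose probe sets carry several symbols, and DDX18, EBNA1BP2 and GNL3 were not analysed here.

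The RNA came from Daudi cells, an established human Burkitt lymphoma B-cell line, infected with an shRNA against C-Myc (C-Myc-sh), an shRNA against Slc7a5 (Slc7a5-sh) or a control shRNA (Ctrl-sh). All groups were selected with puromycin for 48 hours, and each was measured on 3 arrays that the labels call biological replicates of this 1 line. SLC7A5 encodes the LAT1 transporter of large neutral amino acids, and the series' design text names the C-Myc knockdown as the positive control. How many hairpins were used per target is not given in the sources used here, and p-values measure the spread between these arrays.

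MYC signal was 12.12, 12.14 and 12.13 (log2) in C-Myc-sh, 12.90, 12.79 and 12.93 in Slc7a5-sh, and 13.16, 13.26 and 13.24 in Ctrl-sh. SLC7A5 signal was 11.79, 11.78 and 11.84 in C-Myc-sh, 11.86, 11.84 and 11.95 in Slc7a5-sh, and 12.06, 12.35 and 12.21 in Ctrl-sh. C-Myc-sh cells held MYC at 46.9% of control (log2 change -1.09, adjusted p = 4.7e-10), while Slc7a5-sh cells held SLC7A5 at 80% of control (-0.32, adjusted p = 0.00414) and MYC at 78.7% (-0.35, adjusted p = 0.000381). SLC7A5 was also below every control array in C-Myc-sh. On leaving out 1 array its change there was -0.48 to -0.34 over Ctrl-sh and -0.11 to -0.05 over Slc7a5-sh. Of 10 B-cell markers 9 were measured, and all were above the testing level in each group, whereas 6 of 7 T and NK cell markers were below it in each group. Below it lay 5, 6 and 4 of 6 myeloid markers and 3, 2 and 3 of 6 epithelial or fibroblast markers in C-Myc-sh, Slc7a5-sh and Ctrl-sh in that order. The summed B-cell marker signal was 15.76 to 15.86 (log2) in C-Myc-sh, 15.44 to 15.56 in Slc7a5-sh and 15.65 to 15.72 in Ctrl-sh, and its part in the results was not tested. Arrays of 1 group correlated at r = 0.972 to 0.977 across genes, which are not independent replicates.

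In C-Myc-sh cells 40 of the 52 assembly factors fell and 4 rose against Ctrl-sh, with a median log2 change of -0.70, or 61.5% of control. Among all genes tested 26.2% fell and 28.7% rose in that comparison (limma's moderated test, Benjamini-Hochberg adjusted p under 0.05), and their median was 0.04. The 44 called members compare with 54.9% of all genes, and 15 members fell by 1 or more on the log2 scale, as did 6.28% of all genes. In Slc7a5-sh cells 4 members fell and 10 rose, where the background was 11% and 14.3% (25.3% called in all), and no member fell by 1 or more (0.578% of all genes). The members' median there was 0.01, next to 0.03 over all genes. Set directly against Slc7a5-sh, C-Myc-sh cells had 45 members lower and 0 higher by limma (all genes: 49.5% called, 25.1% lower, 24.4% higher), with a median of -0.72, and 13 were lower by 1 or more (4.27% of all genes). The median member signal per array was 10.52 to 10.69 in C-Myc-sh, 11.26 to 11.37 in Slc7a5-sh and 11.22 to 11.28 in Ctrl-sh. The 3 C-Myc-sh arrays lay wholly below the controls for 41 members and wholly above for 4, as for 29.1% and 33.2% of all genes. The Slc7a5-sh arrays did so for 8 and 14 members (18% and 21.8% of all genes). C-Myc-sh lay wholly below Slc7a5-sh for 46 members and above for 0 (27.7% and 28.8% of all genes). Both knockdowns were compared with the same control arrays, and the direct comparison uses the same C-Myc-sh arrays again. Signals are scaled within each array, so a lower signal is relative, and in bulk RNA fewer cells of a type and less RNA per cell cannot be told apart.

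**Figure D1:**
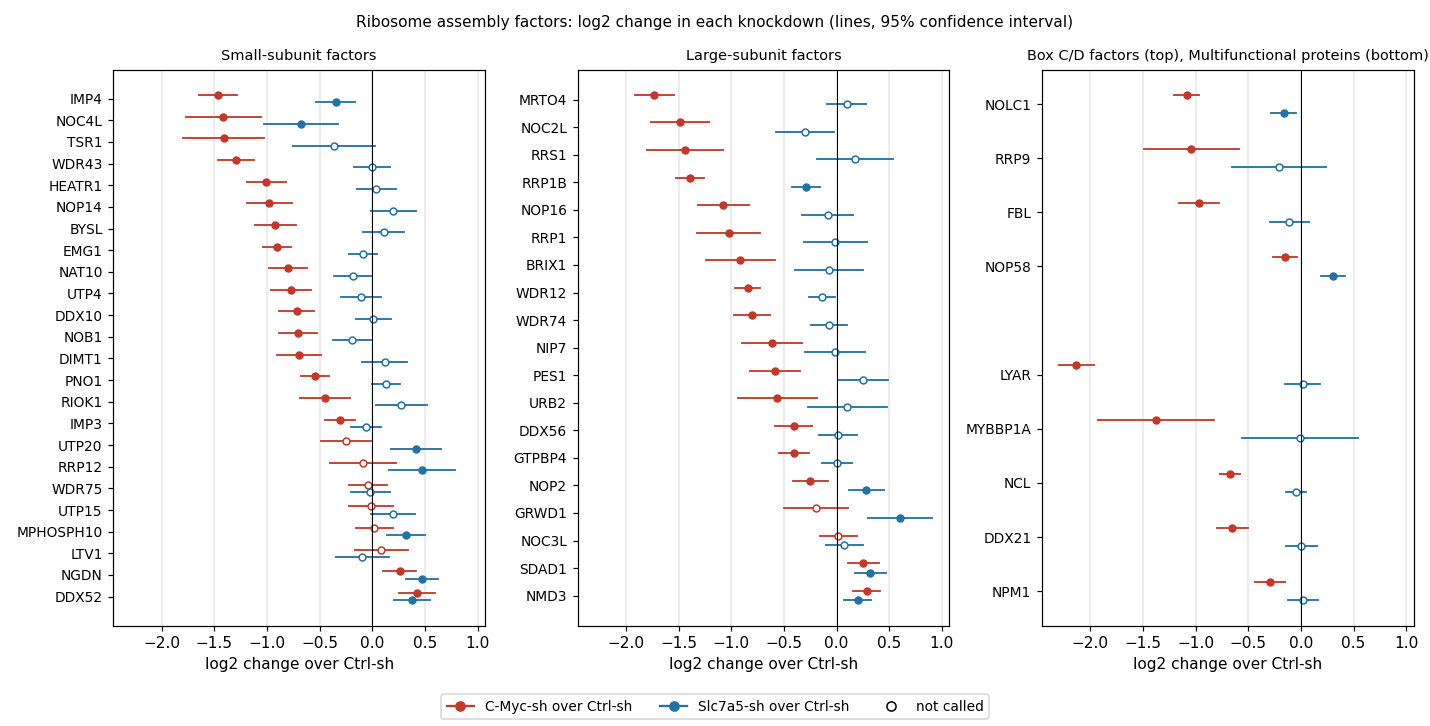
Log2 change over Ctrl-sh (x axis) of each tested ribosome assembly factor (rows) in C-Myc-sh (red) and Slc7a5-sh (blue), with 95% confidence intervals and open points for changes not called. The C-Myc-sh points run from -2.13 to 0.43 and lie below 0 for 45 of 52 genes, while the Slc7a5-sh points run from -0.68 to 0.60.

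**Figure D2:**
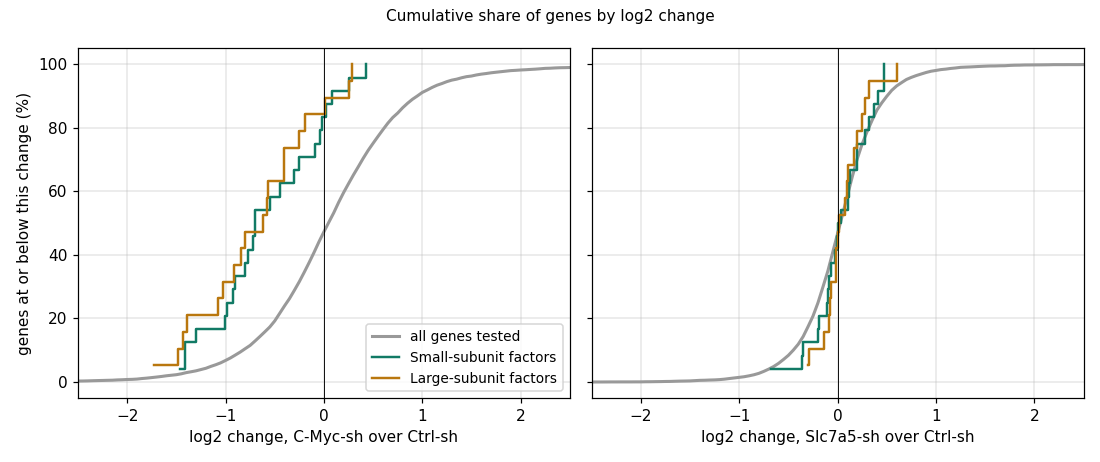
Cumulative share of genes (y axis, %) by log2 change (x axis) for small-subunit factors, large-subunit factors and all 11250 genes tested. In C-Myc-sh over Ctrl-sh (left) both factor curves lie left of all genes, with medians of -0.70 and -0.62 against 0.04; in Slc7a5-sh over Ctrl-sh (right) the medians are 0.02, 0.01 and 0.03.

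MYC binds DNA as a dimer with MAX, and its best-known site is the E-box CACGTG. Start-site sequences were read for the members (RefSeq, GRCh38.p14, 250 bases before to 50 after the annotated start), and 48 of the 58 had a window, the first listed where RefSeq gave several. CACGTG, which reads the same on both strands, stood in 18 of the 48 (37.5%), in 26 of 76 other ribosome assembly genes (34.2%), in 10.5% of 9226 tested genes and in 7.43% of all 27305 windows. A related hexamer, CACGCG on either strand, stood in 33.3% of the members' windows, 18.5% of tested genes and 11.4% of all windows; it shares no match with CACGTG, although the letters of neighbouring matches can overlap. The members' 19 CACGTG matches lay mostly near the start, and 16 (84.2%) began within 50 bases of it, compared with 40.3% of 1097 matches in tested genes. The windows below are the 6 with the lowest C-Myc-sh changes among hexamer-bearing members whose value on every array is given here, which leaves out NOP14 (-0.98). They are shown so that the hexamer can be seen at the start of genes that fell, printed 5' to 3' on the gene's strand with CACGTG in capitals and all other bases in lower case.
MRTO4, chr1:19251555-19251854, plus strand: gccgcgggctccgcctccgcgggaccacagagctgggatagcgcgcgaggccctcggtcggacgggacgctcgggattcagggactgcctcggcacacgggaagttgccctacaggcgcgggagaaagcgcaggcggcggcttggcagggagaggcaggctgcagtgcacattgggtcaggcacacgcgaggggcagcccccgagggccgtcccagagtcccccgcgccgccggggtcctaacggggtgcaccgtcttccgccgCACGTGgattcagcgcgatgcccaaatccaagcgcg
IMP4, chr2:130342647-130342946, plus strand: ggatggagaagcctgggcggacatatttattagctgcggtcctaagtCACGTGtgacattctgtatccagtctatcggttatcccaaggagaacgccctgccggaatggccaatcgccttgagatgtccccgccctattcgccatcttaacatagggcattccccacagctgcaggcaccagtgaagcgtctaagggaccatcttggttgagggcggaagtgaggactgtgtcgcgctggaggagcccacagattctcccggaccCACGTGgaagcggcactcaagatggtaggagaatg
MYBBP1A, chr17:4555335-4555634, minus strand: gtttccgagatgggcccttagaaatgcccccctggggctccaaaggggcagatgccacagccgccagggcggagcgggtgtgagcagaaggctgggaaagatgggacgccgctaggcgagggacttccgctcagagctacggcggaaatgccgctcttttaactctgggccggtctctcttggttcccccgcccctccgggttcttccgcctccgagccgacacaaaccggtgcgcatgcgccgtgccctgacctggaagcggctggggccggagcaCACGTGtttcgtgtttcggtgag
WDR43, chr2:28894417-28894716, plus strand: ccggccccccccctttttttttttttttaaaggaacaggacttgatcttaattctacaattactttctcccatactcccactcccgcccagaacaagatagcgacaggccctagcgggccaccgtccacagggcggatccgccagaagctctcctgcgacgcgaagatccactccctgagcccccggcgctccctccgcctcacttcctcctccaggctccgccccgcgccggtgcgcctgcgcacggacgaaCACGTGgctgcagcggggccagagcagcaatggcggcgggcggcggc
RRP9, chr3:51941855-51942154, minus strand: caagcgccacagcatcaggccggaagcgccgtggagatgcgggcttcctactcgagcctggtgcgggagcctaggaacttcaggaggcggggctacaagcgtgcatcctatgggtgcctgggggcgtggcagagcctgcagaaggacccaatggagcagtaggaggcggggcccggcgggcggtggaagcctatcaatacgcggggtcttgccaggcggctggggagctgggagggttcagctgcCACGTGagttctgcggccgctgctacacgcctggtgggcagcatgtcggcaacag
FBL, chr19:39846330-39846629, minus strand: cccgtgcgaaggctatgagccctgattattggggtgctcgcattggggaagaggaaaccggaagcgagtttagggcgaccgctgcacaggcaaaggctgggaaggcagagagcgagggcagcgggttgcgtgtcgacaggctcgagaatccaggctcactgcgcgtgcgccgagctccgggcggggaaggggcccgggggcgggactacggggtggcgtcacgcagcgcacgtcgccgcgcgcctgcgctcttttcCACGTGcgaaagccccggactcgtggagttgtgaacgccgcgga
Counting the start base as 1, the hexamer began at 15 in MRTO4, at -203 and 16 in IMP4, at 28 in MYBBP1A, at 4 in WDR43, at -5 in RRP9 and at 7 in FBL.

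The changes of members with and without the hexamer are given as a description, with no test. Of the 17 tested members with CACGTG, 13 fell in C-Myc-sh over Ctrl-sh, 1 rose and 3 were not called, with a median of -0.80. Of the 27 with a window and no match, 22 fell, 2 rose and 3 were not called, with a median of -0.70. LYAR, the lowest member, had neither hexamer in its first window. When any listed window counted, 21 of the 48 members held CACGTG (43.8%), compared with 12.8% of tested genes. Across all tested genes 31.7% of 965 with CACGTG and 26.0% of 8261 without it fell. In Slc7a5-sh the members' medians were 0.07 with the hexamer and -0.01 without it. A match is a description of the letters, and binding was not measured here.

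**Figure D3:**
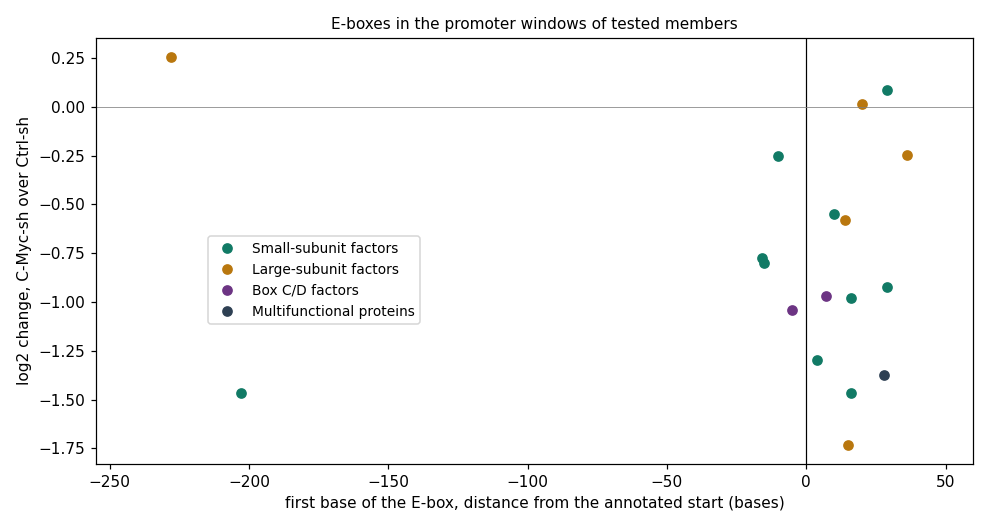
Log2 change in C-Myc-sh over Ctrl-sh (y axis) against the distance of each CACGTG match from the annotated start in bases (x axis), for the 17 tested members that hold one, coloured by class. All but 2 of the matches lie within 50 bases of the start (IMP4 also has one at -203, and that of SDAD1 is at -228), and their genes' changes run from -1.73 to 0.25.

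Of 24 small-subunit factors, all tested, 16 fell and 2 rose in C-Myc-sh over Ctrl-sh, with a median of -0.70. Their shares were 66.7% and 8.33%, against 26.2% and 28.7% of all genes. IMP4, which with IMP3 and MPHOSPH10 joins the U3 RNA in the processome, had 10.36, 10.28 and 10.37 in C-Myc-sh, 11.63, 11.25 and 11.49 in Slc7a5-sh, and 11.79, 11.77 and 11.85 in Ctrl-sh. No array of 1 group overlapped another, and IMP4 was the only member of its trio that fell in both knockdowns (C-Myc-sh: -1.47, SE 0.09, adjusted p = 2.34e-09; Slc7a5-sh: -0.35, SE 0.09, adjusted p = 0.00805). IMP3 had 11.12, 11.26 and 11.12 in C-Myc-sh, 11.41, 11.39 and 11.43 in Slc7a5-sh, and 11.47, 11.41 and 11.54 in Ctrl-sh. It fell in C-Myc-sh (-0.31, adjusted p = 0.00102). MPHOSPH10 had 11.11, 11.33 and 11.33 in C-Myc-sh, 11.50, 11.46 and 11.70 in Slc7a5-sh, and 11.19, 11.19 and 11.33 in Ctrl-sh. C-Myc-sh and control arrays of MPHOSPH10 overlapped (0.02, adjusted p = 0.868), and the gene rose in Slc7a5-sh (0.32, adjusted p = 0.0122), a call lost without the third Slc7a5-sh array (0.25, adjusted p = 0.0518).

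The UTP-A complex binds the nascent ribosomal RNA first. WDR43 had 9.87, 10.03 and 9.82 in C-Myc-sh, 11.17, 11.12 and 11.31 in Slc7a5-sh, and 11.18, 11.18 and 11.26 in Ctrl-sh. HEATR1 had 10.14, 10.32 and 10.42 in C-Myc-sh, 11.21, 11.34 and 11.47 in Slc7a5-sh, and 11.23, 11.34 and 11.31 in Ctrl-sh. UTP4 had 11.52, 11.95 and 11.71 in C-Myc-sh, 12.45, 12.30 and 12.44 in Slc7a5-sh, and 12.42, 12.53 and 12.55 in Ctrl-sh. For all 3 genes the C-Myc-sh arrays lay below every other array, while the Slc7a5-sh and control arrays overlapped. Their changes in C-Myc-sh were -1.30 for WDR43 (adjusted p = 4.43e-09), -1.01 for HEATR1 (adjusted p = 1.63e-07) and -0.78 for UTP4 (adjusted p = 2.96e-06). The other UTP-A genes were not called. UTP15 had 9.87, 9.80 and 9.90 in C-Myc-sh, 10.18, 9.98 and 10.05 in Slc7a5-sh, and 9.83, 10.02 and 9.77 in Ctrl-sh. WDR75 had 11.04, 11.03 and 10.84 in C-Myc-sh, 11.12, 10.93 and 10.91 in Slc7a5-sh, and 11.00, 11.13 and 10.90 in Ctrl-sh. Both overlapped between C-Myc-sh and Ctrl-sh (UTP15 -0.02, 95% interval -0.22 to 0.19; WDR75 -0.04, -0.23 to 0.14).

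NOC4L, a partner of NOP14 in the processome, was the lowest member in Slc7a5-sh. It had 8.58, 8.04 and 8.39 in C-Myc-sh, 8.80, 9.09 and 9.34 in Slc7a5-sh, and 9.70, 9.71 and 9.85 in Ctrl-sh. The 3 groups did not overlap: NOC4L stood at 37.5% of control in C-Myc-sh (-1.42, SE 0.17, adjusted p = 3.63e-06) and at 62.5% in Slc7a5-sh (-0.68, SE 0.17, adjusted p = 0.00784), and differed between the knockdowns (-0.74, adjusted p = 0.00173). TSR1, a GTPase-like factor of late pre-40S particles, had 10.09, 9.98 and 10.71 in C-Myc-sh, 11.40, 11.45 and 11.08 in Slc7a5-sh, and 11.29, 11.83 and 11.90 in Ctrl-sh. It fell in C-Myc-sh (-1.41, adjusted p = 9e-06), with a second probe set alike (-1.44) and 2 dimmer ones at 0.08 and 0.26. The 18S modification enzymes all fell: EMG1 by 0.91, the acetyltransferase NAT10 by 0.80 and the dimethyltransferase DIMT1 by 0.70 on the log2 scale. NOP14 fell by 0.98, BYSL, needed late in 40S assembly, by 0.92, the helicase DDX10 by 0.72, the 18S end-cutting nuclease NOB1 by 0.70, its partner PNO1 by 0.55 and the kinase RIOK1 by 0.45. LTV1, a late pre-40S factor, was not called (0.09), but was called higher when its probe sets were averaged (0.52, adjusted p = 0.00347). Averaging also ended the call of DDX10 (0.10, adjusted p = 0.882, where its other probe set was below the testing level). Without probe sets of the _s_at and _x_at kind, which can bind related transcripts, DIMT1 (-0.37, adjusted p = 0.27), PNO1 (-0.55, adjusted p = 0.124) and TSR1 (0.26, adjusted p = 0.481) were not called.

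DDX52 and NGDN rose in both knockdowns. DDX52, a helicase, had 10.41, 10.38 and 10.33 in C-Myc-sh, 10.29, 10.31 and 10.36 in Slc7a5-sh, and 10.03, 9.89 and 9.92 in Ctrl-sh. NGDN, a processome protein, had 11.85, 11.76 and 11.92 in C-Myc-sh, 12.16, 11.93 and 12.08 in Slc7a5-sh, and 11.50, 11.60 and 11.65 in Ctrl-sh. Every array of either knockdown lay above the controls for both genes (DDX52: 0.43, adjusted p = 0.000399, and 0.38, adjusted p = 0.0036, in C-Myc-sh and Slc7a5-sh in that order; NGDN: 0.26, adjusted p = 0.00713, and 0.47, adjusted p = 0.000331). When a gene's probe sets were averaged neither was called in C-Myc-sh (0.20 and 0.0089) or in Slc7a5-sh (0.15 and 0.20). The other probe set of NGDN was below the testing level (mean 4.10), and 1 probe set of DDX52 was lower in C-Myc-sh (-0.32). UTP20, which joins the processome as a large scaffold, had 10.65, 10.65 and 10.22 in C-Myc-sh, 11.18, 11.03 and 11.32 in Slc7a5-sh, and 10.76, 10.82 and 10.71 in Ctrl-sh. It rose in Slc7a5-sh (0.41, adjusted p = 0.0134; 0.34, adjusted p = 0.0568 without the third Slc7a5-sh array) and had -0.25 in C-Myc-sh (adjusted p = 0.0664), a difference that rested largely on the third C-Myc-sh array. Without that array it was -0.11 (adjusted p = 0.344). It was called without C-Myc-sh array 1 or 2 (-0.32, adjusted p = 0.0383; -0.33, adjusted p = 0.0376), after centring (-0.38) or after quantile normalization (-0.31). RRP12, a factor of pre-40S export, had 9.11, 9.20 and 9.46 in C-Myc-sh, 9.65, 10.05 and 9.75 in Slc7a5-sh, and 9.31, 9.13 and 9.59 in Ctrl-sh. Its rise in Slc7a5-sh (0.47, adjusted p = 0.029) was lost without control array 1 (0.46, adjusted p = 0.0756), control array 2 (0.37, adjusted p = 0.121) or Slc7a5-sh array 2 (0.35, adjusted p = 0.124).

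Of 24 large-subunit factors 19 were tested, and 15 fell and 2 rose in C-Myc-sh over Ctrl-sh, with a median of -0.62. Their shares were 78.9% and 10.5%, against 26.2% and 28.7% of all genes. MRTO4, which holds the place of a stalk protein on pre-60S particles, had 10.08, 10.22 and 10.16 in C-Myc-sh, 11.78, 11.99 and 12.15 in Slc7a5-sh, and 11.83, 11.87 and 11.96 in Ctrl-sh. Its C-Myc-sh signal was 30.2% of control (-1.73, SE 0.09, adjusted p = 4.49e-10), and a second probe set gave -1.43. Slc7a5-sh and control arrays of MRTO4 overlapped (0.09, adjusted p = 0.472). RRP1B, a nucleolar protein related to RRP1, had 12.45, 12.47 and 12.50 in C-Myc-sh, 13.63, 13.63 and 13.46 in Slc7a5-sh, and 13.92, 13.93 and 13.75 in Ctrl-sh. Its groups did not overlap, and it was the only large-subunit factor that fell in Slc7a5-sh (-0.29, adjusted p = 0.00328) as well as in C-Myc-sh (-1.39, adjusted p = 1.6e-10).

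NOC2L, of the NOC complex that carries early pre-60S particles, had 8.84, 9.06 and 8.69 in C-Myc-sh, 9.92, 9.91 and 10.31 in Slc7a5-sh, and 10.27, 10.34 and 10.44 in Ctrl-sh. It fell in C-Myc-sh (-1.48, adjusted p = 1.52e-07), whereas its other, dimmer probe set gave -0.09 (adjusted p = 0.819), and its partner NOC3L had 0.02. RRS1, which brings the 5S ribonucleoprotein to the pre-60S particle, had 9.95, 10.03 and 10.38 in C-Myc-sh, 11.48, 11.96 and 11.75 in Slc7a5-sh, and 12.00, 11.38 and 11.29 in Ctrl-sh. The C-Myc-sh arrays lay below all others, and Slc7a5-sh and control arrays overlapped (-1.44 in C-Myc-sh, adjusted p = 3.6e-06). Of the PeBoW complex, which acts on the 5.8S and 28S precursors, WDR12 had 11.42, 11.50 and 11.50 in C-Myc-sh, 12.16, 12.15 and 12.22 in Slc7a5-sh, and 12.35, 12.35 and 12.26 in Ctrl-sh. PES1 had 10.19, 10.67 and 10.60 in C-Myc-sh, 11.32, 11.23 and 11.41 in Slc7a5-sh, and 10.95, 11.08 and 11.18 in Ctrl-sh. Both fell in C-Myc-sh (WDR12 -0.85, adjusted p = 1.01e-08; PES1 -0.58, adjusted p = 0.000397). In Slc7a5-sh the arrays of WDR12 lay below and those of PES1 above the controls, and neither was called (-0.14, adjusted p = 0.0879, and 0.25, adjusted p = 0.115).

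NOP2, a methyltransferase of 28S RNA, moved in opposite directions. It had 10.48, 10.46 and 10.67 in C-Myc-sh, 11.03, 11.08 and 11.09 in Slc7a5-sh, and 10.74, 10.86 and 10.75 in Ctrl-sh. C-Myc-sh arrays were lowest and Slc7a5-sh arrays highest (-0.25, adjusted p = 0.0136; 0.28, adjusted p = 0.0162; C-Myc-sh over Slc7a5-sh -0.53, adjusted p = 4.7e-05). The fall was not called without control array 2 (-0.21, adjusted p = 0.0606) or C-Myc-sh array 1 or 2 (-0.22, adjusted p = 0.0516; -0.21, adjusted p = 0.0586), nor the rise without control array 1 or 3 (both 0.26, adjusted p = 0.06 and 0.0567). GRWD1, a pre-60S protein also tied to histone handling, had 8.69, 8.47 and 8.50 in C-Myc-sh, 9.18, 9.46 and 9.42 in Slc7a5-sh, and 8.93, 8.66 and 8.66 in Ctrl-sh. It was the highest member in Slc7a5-sh, at 152% of control (0.60, SE 0.14, adjusted p = 0.00639), and its C-Myc-sh and control arrays overlapped (-0.20, adjusted p = 0.266).

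NMD3, the adaptor that exports 60S precursors from the nucleus, and SDAD1 rose in both knockdowns. NMD3 had 12.98, 13.09 and 12.90 in C-Myc-sh, 12.89, 12.90 and 12.92 in Slc7a5-sh, and 12.66, 12.66 and 12.79 in Ctrl-sh. SDAD1 had 11.22, 11.33 and 11.20 in C-Myc-sh, 11.24, 11.39 and 11.31 in Slc7a5-sh, and 10.98, 11.04 and 10.97 in Ctrl-sh. The controls lay below every knockdown array, and the knockdowns overlapped (NMD3: 0.29, adjusted p = 0.000796 in C-Myc-sh and 0.20, adjusted p = 0.0233 in Slc7a5-sh; SDAD1: 0.25, adjusted p = 0.00548 and 0.32, adjusted p = 0.00354). With arrays centred on their medians, which lowers the median of all genes in C-Myc-sh over Ctrl-sh to -0.08, neither was called in C-Myc-sh (0.16, adjusted p = 0.11, and 0.13, adjusted p = 0.214), nor was NGDN (0.13, adjusted p = 0.257). NMD3 in Slc7a5-sh was not called without control array 1 or 2 or Slc7a5-sh array 1 or 3 (0.18, 0.18, 0.20 and 0.19), nor after centring (0.19, adjusted p = 0.113). Of the rest, NOP16 fell by 1.08, RRP1 by 1.03, BRIX1 by 0.91, WDR74 by 0.80, NIP7 by 0.62, URB2 by 0.56, the helicase DDX56 by 0.41 and the GTPase GTPBP4 by 0.40 on the log2 scale in C-Myc-sh. URB2 was not called without control array 1 (-0.44, adjusted p = 0.0685) or C-Myc-sh array 1 (-0.46, adjusted p = 0.0605), and a dimmer probe set of RRP1 was higher (1.05). When probe sets were averaged, NOP16 (-0.09), RRP1 (0.0102), PES1 (-1.21), WDR74 (-0.49), DDX56 (-0.12) and GTPBP4 (-0.11) were not called in C-Myc-sh. The averages of NOP16, PES1 and WDR74 each take in a probe set below the testing level, and the brighter sets of WDR74 gave -0.80 and -0.90. With probe sets averaged, SDAD1 was called in neither knockdown (0.23 in C-Myc-sh, 0.06 in Slc7a5-sh). SDAD1 in C-Myc-sh was also not called without _s_at and _x_at probe sets (0.16, adjusted p = 0.672), nor was it in Slc7a5-sh (-0.29, adjusted p = 0.511).

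All 4 box C/D factors tested fell in C-Myc-sh, as did 26.2% of all genes, and the factors' median was -1.01. NOLC1, a chaperone that shuttles snoRNPs to the nucleolus, had 12.39, 12.48 and 12.36 in C-Myc-sh, 13.27, 13.32 and 13.40 in Slc7a5-sh, and 13.55, 13.45 and 13.48 in Ctrl-sh. Its groups did not overlap (C-Myc-sh: -1.09, SE 0.06, adjusted p = 5.98e-10; Slc7a5-sh: -0.16, SE 0.06, adjusted p = 0.0413). The Slc7a5-sh call of NOLC1 was lost without any 1 control array (-0.14, -0.19 and -0.17) or without Slc7a5-sh array 1 or 2 (-0.14 and -0.16). That call was also lost after quantile normalization (-0.10, adjusted p = 0.173), after centring (-0.18, adjusted p = 0.104) and with no filter (-0.16, adjusted p = 0.0757). RRP9, the U3-specific protein, had 7.05, 6.92 and 7.05 in C-Myc-sh, 7.82, 7.97 and 7.72 in Slc7a5-sh, and 7.98, 8.04 and 8.12 in Ctrl-sh. It fell in C-Myc-sh (-1.04, SE 0.21, adjusted p = 0.000656), and in Slc7a5-sh it was below the controls on every array without being called (-0.21, adjusted p = 0.516).

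FBL, the methyltransferase of the box C/D core, had 12.88, 12.82 and 12.77 in C-Myc-sh, 13.52, 13.72 and 13.82 in Slc7a5-sh, and 13.92, 13.58 and 13.88 in Ctrl-sh. NOP58, a scaffold of the same core, had 12.37, 12.33 and 12.28 in C-Myc-sh, 12.80, 12.78 and 12.79 in Slc7a5-sh, and 12.54, 12.48 and 12.42 in Ctrl-sh. FBL was at 51.0% of control in C-Myc-sh (-0.97, adjusted p = 2.61e-07) and overlapped the controls in Slc7a5-sh (-0.11, adjusted p = 0.41). NOP58 rose in Slc7a5-sh (0.31, SE 0.05, adjusted p = 0.00081) and fell slightly in C-Myc-sh (-0.15, adjusted p = 0.0229). That second call was lost without control array 1 or 2 (-0.12 and -0.15), without C-Myc-sh array 2 or 3 (-0.16 and -0.13) and after quantile normalization (-0.02, adjusted p = 0.759). In C-Myc-sh over Slc7a5-sh both core genes were lower (FBL -0.86, adjusted p = 1.33e-06; NOP58 -0.46, adjusted p = 4.49e-06).

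**Figure D4:**
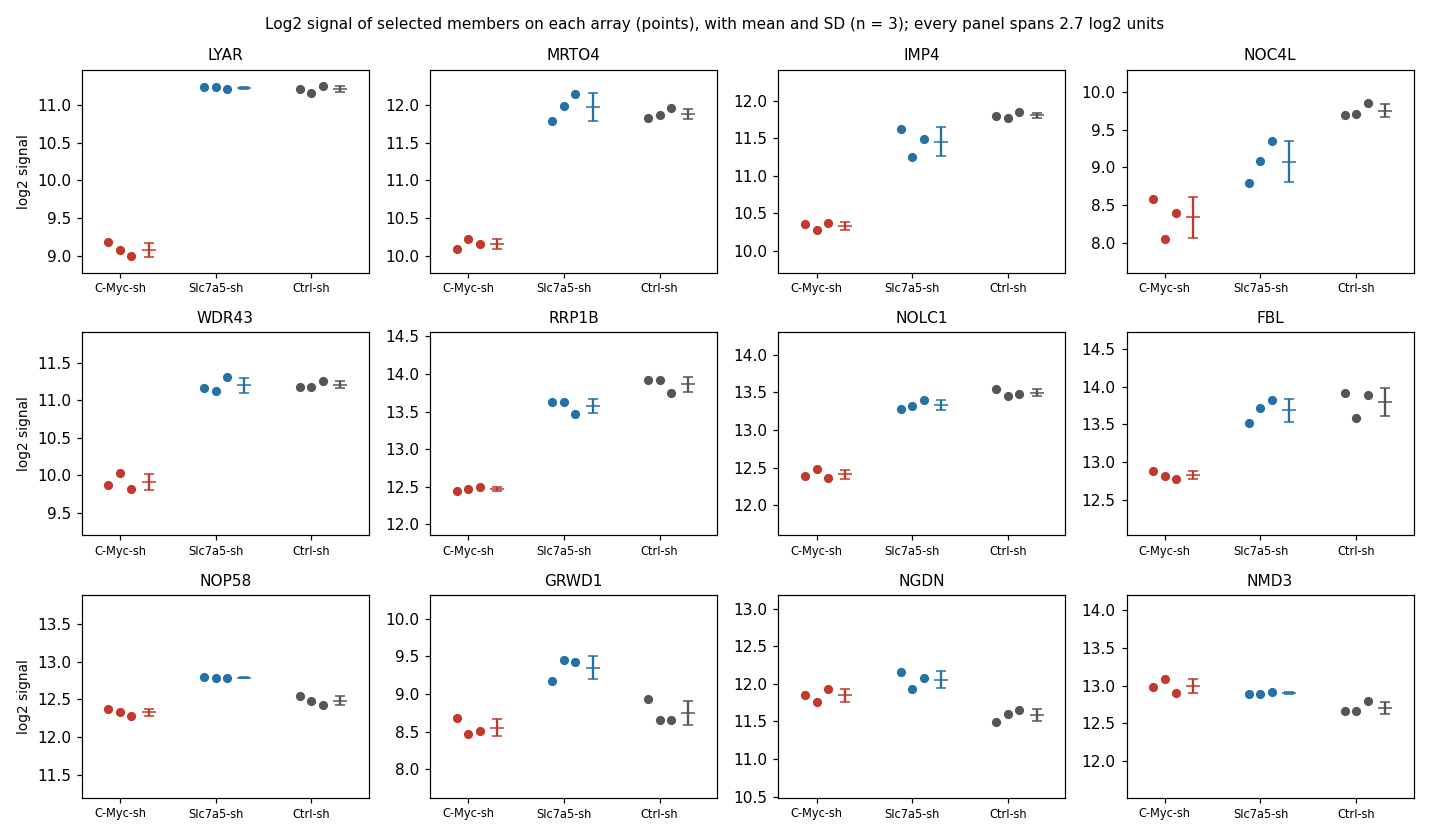
Log2 signal (y axis, each panel spanning 2.7 units at its own level) of selected assembly factors on each array (points) in C-Myc-sh, Slc7a5-sh and Ctrl-sh, with mean and SD (n = 3). LYAR, MRTO4, WDR43 and FBL are low in C-Myc-sh alone, IMP4, NOC4L, RRP1B and NOLC1 are lowest in C-Myc-sh with Slc7a5-sh between it and Ctrl-sh, NOP58 and GRWD1 are high in Slc7a5-sh, and NGDN and NMD3 are high in both knockdowns.

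All 5 multifunctional nucleolar proteins fell in C-Myc-sh, as did 26.2% of all genes, and the proteins' median was -0.68. None was called in Slc7a5-sh (range -0.05 to 0.02), where 25.3% of all genes were. LYAR, a nucleolar zinc-finger protein of growing cells, had 9.18, 9.07 and 8.99 in C-Myc-sh, 11.24, 11.24 and 11.21 in Slc7a5-sh, and 11.21, 11.17 and 11.26 in Ctrl-sh. It was the lowest of all members, at 22.8% of control (-2.13, SE 0.08, adjusted p = 1.97e-11), and its second probe set gave -2.28. MYBBP1A, a MYB-binding protein of the nucleolus, had 8.23, 7.16 and 8.08 in C-Myc-sh, 9.46, 9.39 and 8.71 in Slc7a5-sh, and 9.32, 9.07 and 9.21 in Ctrl-sh. Its C-Myc-sh arrays were spread over more than 1 log2 unit yet lay below all others (-1.37, SE 0.26, adjusted p = 0.000335). Nucleolin, NCL, fell by 0.68, the helicase DDX21 by 0.65 and nucleophosmin, NPM1, by 0.29 on the log2 scale. A dimmer probe set of NCL was higher in C-Myc-sh (0.55) and averaging both ended its call there (-0.06, adjusted p = 0.668). In Slc7a5-sh over Ctrl-sh the averaged NCL value was called higher (0.43, adjusted p = 0.0187).

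The 2 knockdowns were also set against each other directly. The members not called there were UTP15, WDR75, LTV1, DDX52, NOC3L, NMD3 and SDAD1, and the other 45 were lower in C-Myc-sh. Of these 7, alternatives called NMD3 higher after quantile normalization (0.24, adjusted p = 0.00314), LTV1 higher with its probe sets averaged (0.40, adjusted p = 0.0168) and UTP15 lower after quantile normalization or centring (-0.31, adjusted p = 0.0175; -0.33, adjusted p = 0.022). Averaging left 38 members lower, and ended the calls of DDX10, DDX56, GTPBP4, NGDN, NOP16, PES1 and RRP1. Of these, DDX10, NGDN, NOP16 and PES1 each have a probe set below the testing level. The share of all genes lower with probe sets averaged is not given here. The calls of NCL, PNO1 and TSR1 were lost without _s_at and _x_at probe sets. By class the counts were 20 of 24 small-subunit factors (median -0.67), 16 of 19 large-subunit factors (-0.73), 4 of 4 box C/D factors (-0.85) and 5 of 5 multifunctional proteins (-0.66). Among all genes 25.1% were lower. NGDN was lower in C-Myc-sh than in Slc7a5-sh (-0.21, adjusted p = 0.0253), a call lost without Slc7a5-sh array 1 or 3 (-0.16 and -0.20) or C-Myc-sh array 1 or 2 (-0.21 and -0.17). Whether the classes differ from each other was not tested. In Slc7a5-sh over Ctrl-sh, the calls of UTP20, RRP12, MPHOSPH10, NMD3 and NOLC1 were lost without the trended variance, while NOC4L, IMP4, RRP1B, GRWD1 and NOP58 kept theirs under every alternative tried. Leaving out 1 array added calls there for NAT10 (-0.26) and NOC2L (-0.43), both without Slc7a5-sh array 3, for TSR1 without control array 1 (-0.55) and for PES1 without C-Myc-sh array 1 (0.25).

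A list of 87 other ribosome assembly genes gave 83 tested. In C-Myc-sh over Ctrl-sh, with a median of -0.41, 57 fell and 5 rose (68.7% and 6.02%, against 26.2% and 28.7% of all genes). In Slc7a5-sh, with a median of 0.00, 6 fell and 15 rose (7.23% and 18.1%, against 11% and 14.3% of all genes). In C-Myc-sh over Slc7a5-sh, with a median of -0.46, 55 (66.3%) were lower and none higher by limma, against 25.1% and 24.4% of all genes. Of small-subunit genes RRP7A was lowest in C-Myc-sh (-1.87, adjusted p = 1.3e-07), followed by TBL3 (-1.52, adjusted p = 1.26e-05), whose probe sets averaged 0.67. TSR2, a chaperone of a 40S ribosomal protein, was higher in C-Myc-sh (0.68, adjusted p = 4.27e-05) and in Slc7a5-sh (0.93, adjusted p = 2.33e-05). Of large-subunit genes NLE1 (-1.37) and PAK1IP1 (-1.10) were lowest, and NVL (0.45; 0.32 and not called after centring) and LSG1 (0.41) highest. In snoRNP assembly the ATPase RUVBL2 (-1.17) and the box H/ACA core protein NHP2 (-1.10) fell, and ZNHIT3 rose (0.24; 0.11 and not called after centring).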

How the data were processed

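Expression was measured on 9 Affymetrix arrays, 3 per group. The authors deposited normalized log2 signals made with MAS5, per the submitters' processing notes; the log base was read from the values, whose trimmed mean (2% off each end) is 497 on every array after taking 2 to their power. Every array is thus scaled to the same trimmed mean, and precision is limited by how many arrays there are. Of 54613 probe sets 41091 carried 1 gene symbol, 1801 several and 11721 none; symbols were updated through Entrez IDs (41037 matched, 0 changed). Each gene took its probe set with the highest mean, and 22 members were read by _s_at or _x_at probe sets, which can bind related transcripts. Genes whose mean reached the median probe set's (5.77 log2) were tested with limma 3.58.1 in R 4.3.3: 3 group means over 9 arrays, trended empirical Bayes, two-sided, Benjamini-Hochberg over 11250 genes, called at adjusted p under 0.05. The script was tested on simulated data. No block was used, because the labels tie no replicate numbers across groups. Same-numbered arrays of different groups also did not deviate together (r = -0.02 to 0.02, 9 pairs). Values of every array are given for the lowest called members of each class, those called against the main direction, those called in Slc7a5-sh and 4 named complexes; the other members have log2 changes only. The members and gene lists were chosen with earlier results of these data known. Alternatives covered scaling, filter, probe-set choice, variance model, arrays fitted and leaving out each array. Promoter windows came from RefSeq (GRCh38.p14).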

Additional observations from a re-analysis of the deposited data

How the results depend on the processing

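Most values kept their direction and call: of 2928 member values under alternatives, 79 lost a call, 15 gained one and 85 changed sign. Of the sign changes 78 were called in neither setting, 6 are among the lost calls and 1, NCL in Slc7a5-sh, among the gained. Direction could not change where only the genes kept, the variance model, the block or arrays outside the comparison changed. Of 27 members with several probe sets above the testing level, 8 had all of 1 sign in Slc7a5-sh over Ctrl-sh. The same count was 20 in C-Myc-sh over Ctrl-sh and 19 in C-Myc-sh over Slc7a5-sh. Those that differed in C-Myc-sh over Ctrl-sh were DDX52, DDX56, GTPBP4, HEATR1, NCL, RRP1 and TSR1. Members called in Slc7a5-sh over Ctrl-sh numbered 14, and 9 without the trended variance. In C-Myc-sh over Ctrl-sh 44 of 52 were called, and 28 of 41 without _s_at and _x_at probe sets, where fewer genes are tested. Centring arrays on their medians gave a member median of -0.83 both in C-Myc-sh over Ctrl-sh and in C-Myc-sh over Slc7a5-sh, and moved the median of all genes to -0.08 and -0.09, against 0.04 and 0.03. The share of lower calls among all called genes became 59.3% and 63.2%, against 47.7% and 50.7%. Averaging probe sets gave member medians of -0.58 and -0.62. It left 34 of 52 members called in C-Myc-sh over Ctrl-sh, 32 lower and 2 higher, against 40 lower and 4 higher in the main fit. Leaving out 1 array gave 42 to 44 called members in C-Myc-sh over Ctrl-sh, 11 to 15 in Slc7a5-sh over Ctrl-sh and 44 to 45 in C-Myc-sh over Slc7a5-sh. With the replicate number as a block, 44, 13 and 45 members were called in the same order, and the 1 changed member call was NOLC1 in Slc7a5-sh (-0.16, adjusted p = 0.0684). For these member counts under alternatives, the share of all genes called in the same setting is not given. A change particular to the members thus cannot be told from one over all genes. With arrays centred on their medians, the sign turned in C-Myc-sh over Ctrl-sh for LTV1 (-0.0428), MPHOSPH10 (-0.11), NOC3L (-0.11), and in Slc7a5-sh over Ctrl-sh for DDX10 (-0.0048), DDX21 (-0.0084), GTPBP4 (-0.0126), and in C-Myc-sh over Slc7a5-sh for DDX52 (-0.0656), NMD3 (-0.0287), ZNHIT3 (-0.10). With a gene's probe sets averaged, the sign turned in C-Myc-sh over Ctrl-sh for DDX10 (0.10), RRP1 (0.0102), TBL3 (0.67), and in Slc7a5-sh over Ctrl-sh for HEATR1 (-0.12), LTV1 (0.12), LYAR (-0.001), MYBBP1A (0.0201), NCL (0.43), NIP7 (0.0209), NOC2L (0.19), PES1 (-0.59), PNO1 (-0.11), RRP1 (0.19), TSR1 (0.0021), UTP15 (-0.0201), WDR74 (0.39), TBL3 (0.24), NLE1 (0.0274), RUVBL2 (0.11), and in C-Myc-sh over Slc7a5-sh for NOP16 (0.052), SDAD1 (0.16), TBL3 (0.44). After quantile normalization, the sign turned in Slc7a5-sh over Ctrl-sh for NPM1 (-0.0526), and in C-Myc-sh over Slc7a5-sh for DDX52 (-0.0159), NOC3L (0.0011), LSG1 (0.0182). Without _s_at and _x_at probe sets, the sign turned in C-Myc-sh over Ctrl-sh for NCL (0.55), TSR1 (0.26), and in Slc7a5-sh over Ctrl-sh for GTPBP4 (-0.0475), MRTO4 (-0.043), NCL (0.90), NOC2L (0.67), NOP16 (0.10), PNO1 (-0.40), SDAD1 (-0.29), TSR1 (0.41), WDR74 (0.28), NLE1 (0.45), and in C-Myc-sh over Slc7a5-sh for SDAD1 (0.44). Leaving out 1 array turned the sign in C-Myc-sh over Ctrl-sh for LTV1 (-0.0469 to 0.21), MPHOSPH10 (-0.0185 to 0.0932), NOC3L (-0.0408 to 0.0895), RRP12 (-0.19 to 0.0317), UTP15 (-0.0661 to 0.0562), WDR75 (-0.0958 to 0.0228), in Slc7a5-sh over Ctrl-sh for BRIX1 (-0.24 to 0.034), DDX10 (-0.0612 to 0.058), DDX21 (-0.0688 to 0.0817), DDX56 (-0.0745 to 0.0837), GTPBP4 (-0.0537 to 0.0689), HEATR1 (-0.027 to 0.10), LTV1 (-0.16 to 0.0278), LYAR (-0.0049 to 0.0398), MYBBP1A (-0.15 to 0.23), NIP7 (-0.12 to 0.15), NPM1 (-0.0353 to 0.0658), RRP1 (-0.11 to 0.088), URB2 (-0.0914 to 0.25), WDR43 (-0.0615 to 0.0325), WDR75 (-0.0878 to 0.0377) and in C-Myc-sh over Slc7a5-sh for NOC3L (-0.12 to 0.0165), WDR75 (-0.0564 to 0.0462), ZNHIT3 (-0.0381 to 0.0848). The cause of these changes was not tested. Background readings were not used here, so how far a dim probe set stood above background is not known.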
